A study of Mus musculus with 4 samples.

Results

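The genes described here are 9 genes of zinc handling in mouse cells: the metallothioneins Mt1, Mt2 and Mt3, the zinc-sensing transcription factor Mtf1, the zinc exporters Slc30a1 and Slc30a5, and the zinc importers Slc39a1, Slc39a8 and Slc39a14. They were taken by gene symbol from the 18193 genes that the arrays measure with a probe set named for exactly 1 gene, and the set was chosen by the intensity of Mt3 in mature osteoclasts on these same arrays, around which the other genes were gathered. The values are therefore given as a description, with nothing tested on them. The study took C57BL/6 mice of 8 to 10 weeks and compared, with 1 array each, marrow macrophages grown for 3 days in M-CSF at 100 ng/ml (BMM), mononuclear TRAP-positive pre-osteoclasts after 2 days with RANKL at 100 ng/ml added (pOC), and multinucleated osteoclasts after 2 more days with both cytokines, on dentin slices that they resorb (mOCd) or on plastic (mOCp). M-CSF was present throughout, and no genotype or transgene separates the groups.

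Zinc is toxic when free and is needed by many enzymes, so cells buffer it. Metallothioneins are small cysteine-rich proteins that bind zinc and copper in the cytosol. Members of the Slc30 family (ZnT) carry zinc out of the cytosol, to the outside or into vesicles, and members of the Slc39 family (ZIP) carry it in. MTF-1, the protein of Mtf1, binds short metal response elements when zinc is plentiful and switches on Mt1, Mt2 and Slc30a1, whereas Mt3 is best known from brain and is not induced by zinc in the way that Mt1 and Mt2 are. Osteoclasts depend on zinc enzymes, among them carbonic anhydrase and the matrix metalloproteinases.

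Mt4, Mt3, Mt2 and Mt1 lie next to each other in that order on mouse chromosome 8, between Bbs2 and Nup93. RefSeq windows of 300 bases, from 250 before to 50 after a transcription start (build GRCm38.p6), were found for 8 of the 9 genes. Those of the metallothioneins and of Slc30a1 are shown because these are the genes that were higher in mature osteoclasts than in BMM. All 4 windows lie on the + strand, and capitals mark each match, on either strand, to the core of the metal response element, spelled TGCGCNC or TGCACNC. The Mt1 window is chr8:94178839-94179138, the Mt2 window chr8:94172368-94172667, the Mt3 window chr8:94152357-94152656 and the Slc30a1 window chr1:191906531-191906830.
Mt1: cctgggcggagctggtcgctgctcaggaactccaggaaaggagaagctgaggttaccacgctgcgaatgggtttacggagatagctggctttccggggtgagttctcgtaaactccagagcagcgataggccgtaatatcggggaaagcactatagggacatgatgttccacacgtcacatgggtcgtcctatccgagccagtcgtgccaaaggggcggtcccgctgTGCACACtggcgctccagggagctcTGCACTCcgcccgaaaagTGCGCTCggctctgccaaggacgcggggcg
Mt2: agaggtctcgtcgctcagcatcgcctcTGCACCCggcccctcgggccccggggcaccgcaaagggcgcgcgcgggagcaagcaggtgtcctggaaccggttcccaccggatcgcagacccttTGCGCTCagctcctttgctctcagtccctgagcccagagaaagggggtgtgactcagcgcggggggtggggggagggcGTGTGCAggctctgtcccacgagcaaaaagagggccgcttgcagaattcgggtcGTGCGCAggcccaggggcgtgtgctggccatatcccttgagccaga
Mt3: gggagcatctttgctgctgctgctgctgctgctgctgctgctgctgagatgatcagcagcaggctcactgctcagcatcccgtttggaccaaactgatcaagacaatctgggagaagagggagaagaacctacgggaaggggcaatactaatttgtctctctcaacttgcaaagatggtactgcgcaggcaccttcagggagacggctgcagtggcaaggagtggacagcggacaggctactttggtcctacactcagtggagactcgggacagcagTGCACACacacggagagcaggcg
Slc30a1: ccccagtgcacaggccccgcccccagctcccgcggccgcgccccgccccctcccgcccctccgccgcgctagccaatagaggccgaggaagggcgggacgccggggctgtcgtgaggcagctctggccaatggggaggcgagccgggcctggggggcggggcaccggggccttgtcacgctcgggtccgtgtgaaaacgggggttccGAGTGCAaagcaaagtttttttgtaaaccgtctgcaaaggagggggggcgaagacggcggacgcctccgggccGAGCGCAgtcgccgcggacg
The core was matched at 3 places in the Mt1 window, 4 in the Mt2 window, 2 in the Slc30a1 window and 1 in the Mt3 window. It was also matched once in the window of Slc30a5 and once in 1 of the 2 windows of Slc39a8, genes whose intensity was lower in mature osteoclasts than in BMM, and not in those of Mtf1 and Slc39a1. Of 32851 RefSeq windows of this length, 25.7% held at least 1 match, 6.14% at least 2, 1.31% at least 3 and 0.295% at least 4, with overlapping matches counted once. The Mt2 window also held 1 match to the AP-1 core TGANTCA, present in 7.81% of windows, and the hypoxia core ACGTG, present in 19.6% of windows, was matched in those of Mt1, Slc30a5 and Slc39a1 and in 1 of Slc39a8. A match is a run of letters and was not tested as a binding site. The counts depend on the RefSeq start used, and elements outside a window are not counted. In the Mt1 window the matches began at −23, 3 and 21 from that start.

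Intensities are the deposited linear signals. On each array the median of the non-control probe sets, here called the floor, was 12.7 in BMM, 14.5 in pOC, 15.8 in mOCd and 14.8 in mOCp, and lower values were set to it before ratios were taken. To be called higher or lower, a gene needed a ratio of at least 2-fold and, on the brighter array, an intensity no less than that array's 75th percentile, which was between 77.8 and 87.0. With 1 array per group no test, p-value or standard error is possible, and precision is limited by there being 4 arrays. The guide to error is the SD of log2 ratios between probe sets of the same gene, which was 0.391 for pOC over BMM, 0.397 for mOCp over pOC, 0.504 for mOCd over pOC and 0.427 for mOCd over mOCp. It leaves out the spread between animals and cultures. All these arrays measure bulk RNA, so fewer cells of a type and less RNA per cell cannot be told apart.

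The labels were checked against marker genes. Of 10 osteoclast markers, 1 reached the 75th percentile in BMM, 9 in pOC and 10 on each mature array. Macrophage markers numbered 10, 6, 6 and 7 of 10 in BMM, pOC, mOCd and mOCp. Their summed intensity was 27178.4, 11284.9, 16559.6 and 19654.7 in the same order. Every macrophage marker except Csf1r read higher in mOCp than in mOCd, among them Cd14 at 1387.3 against 735.9 and Adgre1 at 1191.3 against 491.4. The osteoclast list summed to 51729.0 in mOCd and 50165.5 in mOCp, but Itgb3 read 2939.3 and 480.8. The neutrophil list, with 8 of its 10 genes measured, had a summed intensity of 323.5 in BMM, 841.8 in pOC, 968.6 in mOCd and 1886.1 in mOCp, of which S100a8 read 146.4, 380.1, 506.8 and 1112.6, Lcn2 8.4, 121.4, 102.7 and 367.9, S100a9 77.3, 203.0, 155.8 and 208.5, and Ngp 44.0, 44.2, 100.0 and 101.2 in the same order. The other measured genes of this list, Elane, Mpo, Ltf and Camp, stayed at or under 43.0 on every array. The stromal and osteoblast list summed to 61.7, 310.6, 213.3 and 122.7 over 9 measured genes in the same order of groups, mostly through Dcn, with Col1a1, Lum, Cxcl12 and Ibsp under the floor on all 4 arrays. These lists moved with the stages, and their part in the results below was not tested. Erythroid, B cell, T and NK cell, endothelial and mast cell lists had 0 genes at the 75th percentile on any array.

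**Figure D1:**
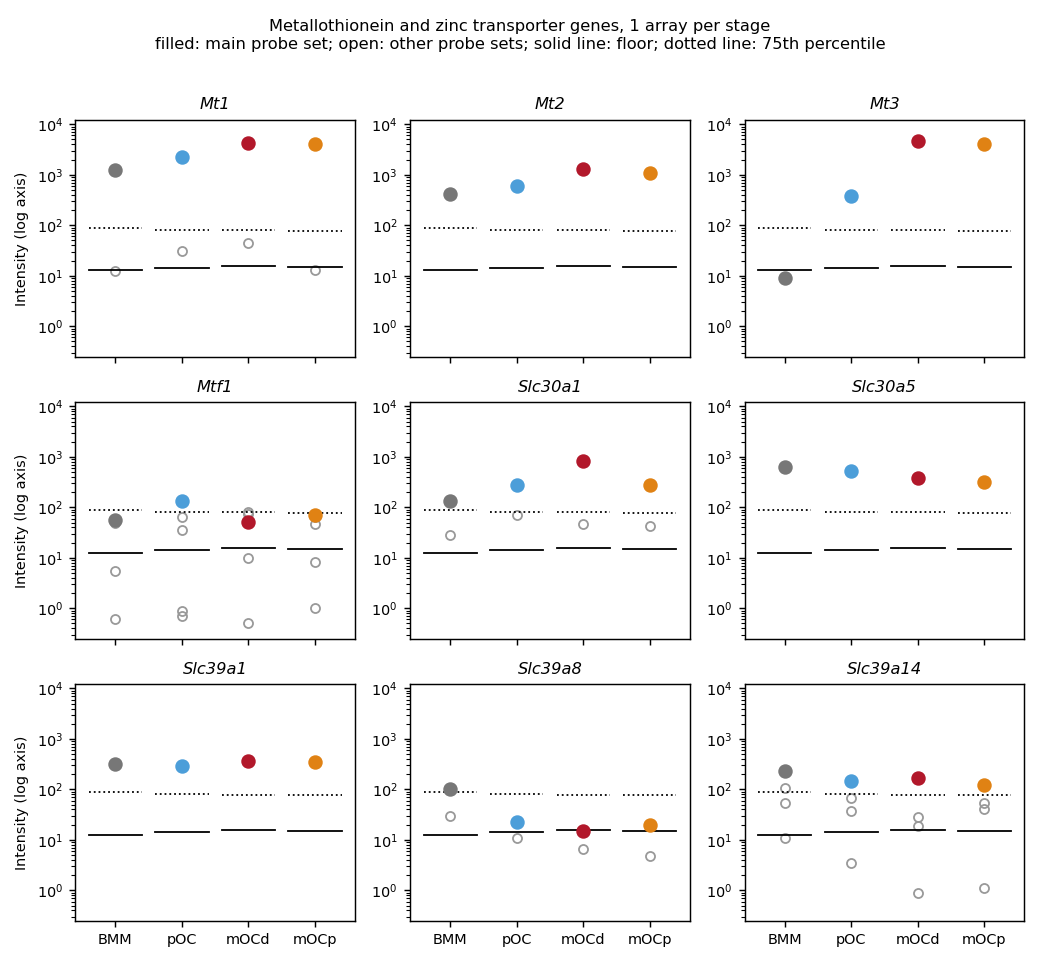
Intensity (log axis) of the 9 genes on each of the 4 arrays, in the order BMM, pOC, mOCd and mOCp. Filled points are the main probe set and open points the others. The solid and dotted bars mark the floor and the 75th percentile of each array, and Mt3 lies under the floor in BMM at 9.2 and reaches 4561.5 in mOCd.

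Mt3 had the widest range of the 9 genes. It is a metallothionein first described as a growth inhibitory factor of brain, and 1 probe set measured it. Its intensity was 9.2 in BMM, under the floor, 372.2 in pOC, 4561.5 in mOCd and 3979.2 in mOCp. Each step of differentiation was brighter than the one before it, and the mature arrays lay close together. The ratio was at least 29.3-fold higher in pOC than in BMM, at least 359-fold higher in mOCd than in BMM and at least 313-fold higher in mOCp than in BMM, bounds that depend on the floor. Between measured values, Mt3 was 12.3-fold higher in mOCd and 10.7-fold higher in mOCp than in pOC, and these comparisons share the pOC array. It stood at place 9 from the top of 7191 genes for mOCd over pOC and at place 9 of 7170 for mOCp over pOC. These genes lay above the floor on both arrays and were bright enough to be called. Mt3 was the gene by which the set was chosen, for its intensity in mature osteoclasts on these same arrays. Nothing is therefore read from these places, or from its range being the widest of the 9 genes. Dentin and plastic differed by a log2 ratio of 0.20, less than the disagreement between probe sets.

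The genes whose pattern over the 4 arrays lay closest to that of Mt3 were found by the root mean square distance between centred log2 values, among 7791 genes that reached the 75th percentile on their brightest array. The nearest was Oscar, an immune receptor that co-stimulates osteoclast formation, at a distance of 0.33. Oscar had intensities of 4.8 in BMM, 300.2 in pOC, 2641.6 in mOCd and 2362.9 in mOCp. Akr1c18, a hydroxysteroid dehydrogenase, followed at 0.42 and Cpe, which encodes carboxypeptidase E, at 0.43, then Myo1d, an unconventional myosin, at 0.86, Atp1b1, a subunit of the sodium pump, at 0.90 and F2r, the thrombin receptor, at 0.97. All of these lay on the same 4 arrays. In BMM each of these genes except Myo1d lay under the floor, as Mt3 did, so their BMM values were set equal. The other metallothioneins were not near: Mt1 lay at place 664 and Mt2 at place 804 in this order.

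Mt1 and Mt2, the widely expressed metallothioneins that buffer zinc and respond to it, were higher at each stage than in BMM, by smaller ratios and from a level already well above the floor. Mt1 had intensities of 1256.7 in BMM, 2245.1 in pOC, 4244.8 in mOCd and 4107.8 in mOCp. Mt2 had 416.1 in BMM, 592.5 in pOC, 1304.9 in mOCd and 1066.1 in mOCp. Both were lowest in BMM and highest in mOCd, and for both the mature arrays differed by less than the probe-set disagreement, with log2 ratios of mOCd over mOCp of 0.05 for Mt1 and 0.29 for Mt2. Against BMM, Mt1 was 3.38-fold higher in mOCd and 3.27-fold higher in mOCp, and Mt2 3.14-fold and 2.56-fold higher. Within single steps, only Mt2 in mOCd against pOC reached 2-fold, at 2.20-fold, and the other steps of these genes lay between 1.42-fold and 1.89-fold. The distance between the patterns of Mt1 and Mt2 was 0.15, which placed Mt2 at 96 of 7791 genes by closeness to Mt1. Closer still were Manbal at 0.03, Mfsd12, a lysosomal membrane protein, at 0.04 and Pold4, a subunit of DNA polymerase delta, at 0.04.

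The main Mt1 probe set has the suffix _s_at, which in the maker's naming means that its probes can match more than 1 transcript, so signal from a related metallothionein RNA cannot be told apart from that of Mt1. The other Mt1 probe set was dim, with 12.4 in BMM, 30.5 in pOC, 45.0 in mOCd and 12.7 in mOCp. Its BMM and mOCp values lay under the floor, and on it the log2 ratio of mOCd over mOCp was at least 1.60, unlike the main set. With this set in place of the main one, Mt1 was not called in any comparison. For mOCp over BMM both its values lay under the floor, so its log2 ratio of 0.22 is only that of the floors. For mOCd over BMM it was at least 1.83, against 1.76 on the main set, but the set was too dim to be called. With the mean of both sets the log2 ratio of mOCp over BMM was 0.96, just under 2-fold, and takes in that floor ratio. Mt2 and Mt3 have 1 probe set each and allow no such check.

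Mtf1, the zinc sensor that activates Mt1 and Mt2, gave no pattern that its probe sets share. The brightest of 5 read 55.8 in BMM, 133.1 in pOC, 51.9 in mOCd and 70.7 in mOCp, which is 2.39-fold higher in pOC than in BMM and 2.56-fold lower in mOCd than in pOC. A further set read 49.8, 63.9, 74.7 and 64.8 in BMM, pOC, mOCd and mOCp, and another 50.6, 36.2, 81.2 and 47.6. On these the log2 ratio of pOC over BMM was 0.36 and −0.48 and that of mOCd over pOC 0.23 and 1.17, against 1.25 and −1.36 on the brightest set. The remaining probe sets were under the floor on all 4 arrays. Differences of Mtf1 between stages thus changed sign with the probe set.

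Slc30a1, which encodes ZnT1, the exporter of zinc across the plasma membrane, was higher on dentin by its main probe set only. Its main probe set read 131.4 in BMM, 278.6 in pOC, 814.0 in mOCd and 279.9 in mOCp. pOC and mOCp were level, BMM was lower and mOCd stood above all others. The ratio was 2.91-fold in mOCd over mOCp, 2.92-fold in mOCd over pOC and 2.12-fold in pOC over BMM. For mOCd over mOCp it stood at place 32 from the top of 6911 genes. These lay above the floor on both arrays, with a brighter value that reached the 75th percentile. The second probe set, also above the floor on every array, read 28.2, 70.7, 46.4 and 41.8 in BMM, pOC, mOCd and mOCp. It had a log2 ratio of 1.33 for pOC over BMM, close to the 1.08 of the main set, but 0.15 for mOCd over mOCp against 1.54. For mOCd over pOC the sign changed, with −0.61 on the second set against 1.55 on the main set. The excess on dentin was therefore seen by 1 of 2 probe sets, and with the mean of both the log2 ratio was 0.85 over mOCp and 0.47 over pOC, neither reaching 2-fold. On the mOCd array the control for transcript integrity made from Tfrc had a 3′ over 5′ log2 signal of 1.70, against 0.84 in mOCp. Those of Actb and Gapdh differed between these arrays by 0.08 and −0.04. The part of this in the Slc30a1 result, or in any other ratio with mOCd, was not tested.

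Slc30a5, or ZnT5, loads zinc into the early secretory pathway. Its intensity was 630.3 in BMM, 535.7 in pOC, 372.7 in mOCd and 324.0 in mOCp. BMM was highest and the mature arrays lowest, by 1.69-fold in mOCd and 1.95-fold in mOCp, both under the 2-fold rule. These calls turned with the scaling: the log2 ratio over BMM was −1.18 in mOCp and −1.07 in mOCd after median scaling, both called lower, and −1.23 in mOCp, called lower, and −0.95 in mOCd, not called, with the spike-ins. The step of pOC over BMM was −0.23 and that of mOCd over mOCp 0.20 on the log2 scale, each under the probe-set disagreement. Those of mOCp over pOC, at −0.73, and of mOCd over pOC, at −0.52, exceeded their disagreements of 0.397 and 0.504, the latter barely.

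The 3 importers differed from each other. Slc39a1, or ZIP1, an importer of the plasma membrane in many cell types, had 321.4 in BMM, 293.5 in pOC, 359.6 in mOCd and 342.5 in mOCp. Its whole range was 1.23-fold, and no pair of stages differed by more than the probe-set disagreement. Slc39a8, or ZIP8, which carries zinc and manganese and in human monocytes is induced by inflammatory signals, had 104.0 in BMM, 23.1 in pOC, 15.2 in mOCd and 19.4 in mOCp. BMM was the only array on which it reached the 75th percentile. It was 4.50-fold lower in pOC, 5.36-fold lower in mOCp and at least 6.58-fold lower in mOCd than in BMM, the mOCd value being under the floor. With the floor at the 65th percentile the log2 ratios over BMM were −1.59 in pOC, −1.62 in mOCp and −1.50 in mOCd, smaller in size than the −2.17, −2.42 and −2.72 of the main setting and still called. Its second probe set read 29.8 in BMM and lay under the floor at 11.0, 6.7 and 4.9 in pOC, mOCd and mOCp, the same order of BMM against the rest. With the mean of both sets the log2 ratio was −1.60 for pOC over BMM and −1.82 for mOCd over BMM, but the mean was too dim to be called.

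Slc39a14, or ZIP14, carries zinc, manganese and iron that is not bound to transferrin. Its main probe set read 235.8 in BMM, 144.3 in pOC, 168.3 in mOCd and 124.8 in mOCp, with BMM highest on this and on both other sets above the floor. The log2 ratio of pOC over BMM was −0.71 on the main set and −0.68 and −0.57 on the others. For mOCd over mOCp the sets split, with 0.43 on the main set and −0.93 and −1.11 on the others, which read 28.9 in mOCd against 54.9 in mOCp and 19.1 in mOCd against 41.1 in mOCp. For mOCd over pOC they split as well, with 0.22 on the main set and −1.23 and −0.95 on the others. No step reached 2-fold on the main set. Its log2 ratio of mOCp over BMM was −0.92, but −1.14 after median scaling and −1.18 with the spike-ins, both called lower.

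**Figure D2:**
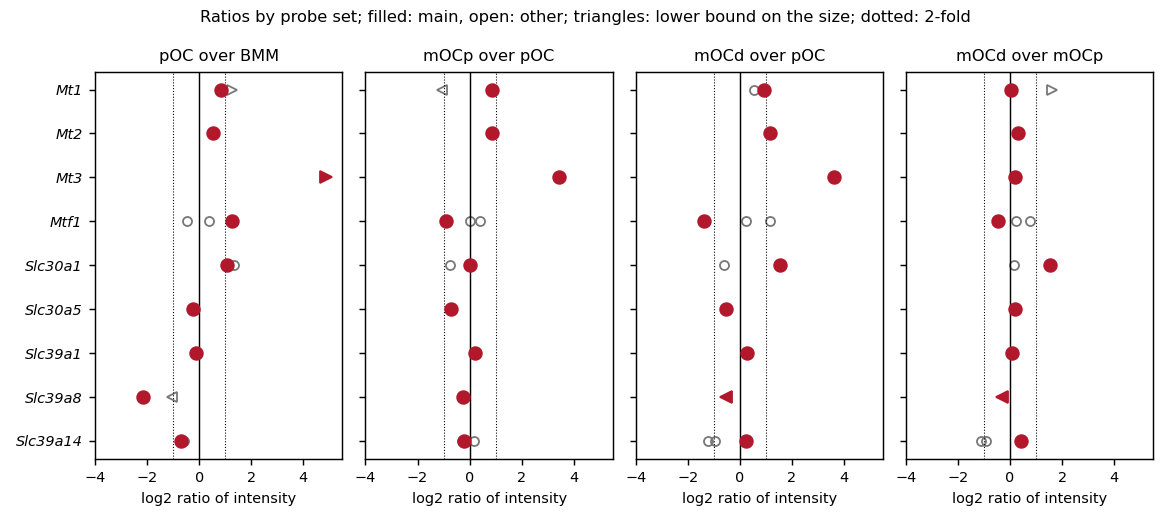
log2 ratios of intensity for the 9 genes in 4 comparisons, with the probe sets of a gene on 1 line. Filled symbols are main probe sets, open symbols the others, triangles are bounds set by the floor, and dotted lines mark 2-fold. The probe sets of Mtf1 lie on both sides of 0 for mOCd over pOC, from −1.36 to 1.17, and the main set of Slc30a1 lies at 1.54 for mOCd over mOCp with its other set at 0.15.

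Counted by comparison, 3 of the 9 genes were at least 2-fold higher in pOC than in BMM (Mt3, Mtf1 and Slc30a1) and 1 lower (Slc39a8). Of 7256 genes that reached the 75th percentile in that comparison, 11.1% were higher and 13.2% lower by the same rule. The median log2 ratio of the 9 genes was 0.51, and that of all genes above the floor 0.09. In this comparison 2 days of RANKL and 2 days of further culture cannot be told apart. For mOCp against pOC, 1 of 8 eligible genes was higher (Mt3) and 0 lower, with backgrounds of 8.80% and 11.4%, and medians of 0.01 for the members and for all genes. For mOCd against pOC, 3 of 8 were higher (Mt2, Mt3 and Slc30a1) and 1 lower (Mtf1), with backgrounds of 10.8% and 12.3% and medians of 0.29 and 0.01. Maturation and 2 days of culture cannot be told apart in either. For mOCd against mOCp, where the substrate differs, 1 of 7 was higher (Slc30a1) and 0 lower. The backgrounds were 2.15% and 2.55% and the medians 0.20 and 0.01. Macrophage and neutrophil marker sums also differ between these arrays, and their part was not tested. As the set was built with these arrays in view, nothing is read from these shares.

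The background split depended on the scaling of the arrays. Between pOC and BMM, 809 genes were higher and 956 lower as deposited, 589 and 1216 after median scaling, and 1034 and 789 after scaling to the spike-in controls. Spike-in scaling gave 284 higher and 1655 lower for mOCp over pOC, against 633 and 820 as deposited, and 443 and 1596 for mOCd over pOC, against 779 and 886. For mOCd over mOCp the split was 149 and 176 as deposited, 108 and 230 after median scaling and 193 and 146 with the spike-ins. The spike-ins were brighter by 0.43 in mOCp and 0.35 in mOCd than in pOC and dimmer by 0.16 in pOC than in BMM on the log2 scale, so a small ratio is a ratio relative to the scaling used. Mt3 kept its calls under all 3 other scalings. Mt2 in mOCd over pOC had a log2 ratio of 0.78 with the spike-ins, under 2-fold, and Slc30a1 in pOC over BMM 0.89 after median scaling.

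**Figure D3:**
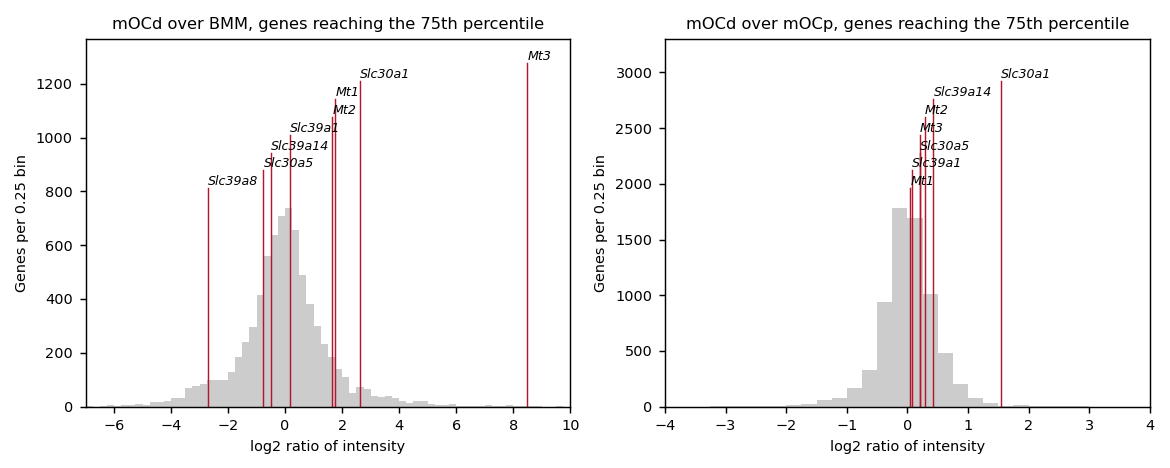
Histograms of log2 ratios over all genes whose brighter value reached the 75th percentile (7537 genes for mOCd over BMM, 6915 for mOCd over mOCp), with red lines at the zinc genes that qualified. Mt3 lies at 8.49, a bound, for mOCd over BMM, and Slc30a1 at 1.54 for mOCd over mOCp.

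Over the whole course, mOCd against BMM, 4 of 8 eligible genes were at least 2-fold higher (Mt1, Mt2, Mt3 and Slc30a1) and 1 lower (Slc39a8), and the same genes were called in mOCp against BMM, where Slc30a1 had a log2 ratio of 1.09, but 0.87 after median scaling and 0.82 with the spike-ins. The backgrounds were 18.8% higher and 20.3% lower for mOCd, and 16.9% and 19.4% for mOCp. These comparisons share the BMM array, and in them RANKL, maturation and further days of culture cannot be told apart. As the set was chosen by Mt3 in mature osteoclasts, nothing is read from these shares either.

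Other genes of zinc and copper handling were taken as a list of 31, made of 20 zinc genes (Mt4 and further transporters) and 11 copper genes. In mOCd, against BMM, 5 of 20 eligible genes were higher and another 3 lower, shares near the 18.8% and 20.3% of all eligible genes. Their median log2 ratio was 0.27, and that of all genes 0.08. Slc39a13, or ZIP13, an intracellular zinc transporter whose loss causes defects of bone, teeth and connective tissue, stood out among them. It read 51.8 in BMM, 270.6 in pOC, 805.4 in mOCd and 392.9 in mOCp. It was higher at each stage than in BMM, by 5.22-fold in pOC, 15.5-fold in mOCd and 7.58-fold in mOCp, and was 2.05-fold higher on dentin than on plastic. Like the main probe set of Slc30a1 it was brightest on dentin, but it has 1 probe set and no second reading. Its call on dentin over plastic was lost after median scaling. The part in it of the Tfrc control, which differed between these arrays, was not tested. Slc30a9, a zinc transporter of mitochondria, was 2.85-fold higher in mOCd and 2.19-fold higher in mOCp than in BMM. Slc39a6, an importer of the plasma membrane, was 2.67-fold lower in mOCd and 2.73-fold lower in mOCp than in BMM.

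Among the copper genes, the importer Slc31a1 (CTR1) and the cytosolic chaperone Atox1 were higher in mature osteoclasts. Atox1 read 1401.3 in BMM, 1783.4 in pOC, 3707.3 in mOCd and 3590.2 in mOCp, 2.65-fold higher in mOCd and 2.56-fold higher in mOCp than in BMM, and Slc31a1 was 2.52-fold and 2.48-fold higher. Atp7a, the copper-exporting ATPase to which Atox1 hands its copper, went the other way. It read 609.5 in BMM, 143.1 in pOC, 271.1 in mOCd and 235.9 in mOCp, with its lowest value in pOC, 4.26-fold lower than in BMM, and its second probe set gave the same order. Sco1, which delivers copper to cytochrome oxidase, was 2.83-fold higher in mOCd than in BMM, and Commd1, a regulator of copper export, 3.06-fold lower. Slc31a2, a relative of Slc31a1, was 2.10-fold higher in mOCp than in BMM and 1.99-fold in mOCd, just short of the rule. Sco2, a relative of Sco1, read 107.1 in mOCd and 221.3 in pOC, 2.07-fold lower.

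Step by step the list gave few calls among its 20 eligible genes. Slc39a13 was higher and Atp7a lower in pOC than in BMM, 1 gene each way, where 11.1% and 13.2% of all eligible genes were called. Atox1 was higher in mOCp than in pOC, at 2.01-fold, with 0 lower, beside 8.80% and 11.4% of all genes. Slc39a13 was higher in mOCd than in mOCp, with 0 lower, beside 2.15% and 2.55%. For mOCd against pOC, Slc30a9, Slc39a13 and Atox1 were higher by 2.13-fold, 2.98-fold and 2.08-fold, and Sco2 and Commd1 lower, beside 10.8% and 12.3% of all genes. Several of these lay within 0.1 of the 2-fold line on the log2 scale.

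**Figure D4:**
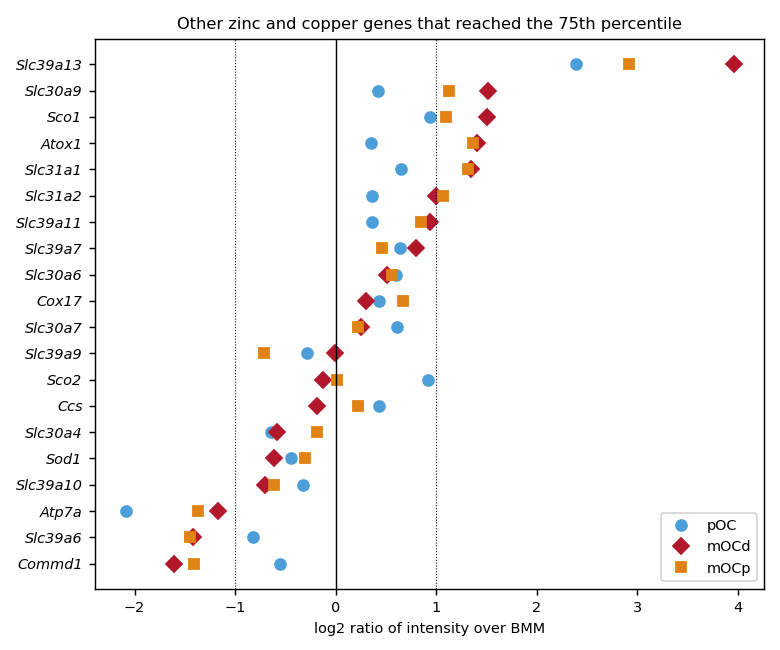
log2 ratios over BMM in pOC (circles), mOCd (diamonds) and mOCp (squares) for the zinc and copper genes outside the 9 that reached the 75th percentile. Slc39a13 lies highest at 2.39, 3.96 and 2.92, and Atp7a is lowest in pOC at −2.09. Dotted lines mark 2-fold.

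Of 10 zinc enzymes, Car2, the carbonic anhydrase whose product is the acid that osteoclasts secrete onto bone, was at least 141-fold higher in mOCd and at least 159-fold higher in mOCp than in BMM. The metalloproteinases Mmp9 and Mmp14 were also higher. Mmp12, the other metalloproteinase of the list, was not called, at 1.22-fold higher in mOCd and 1.08-fold in mOCp than in BMM. In mOCd against BMM, 4 of the 9 eligible enzymes were higher, and another 3 were lower, beside 18.8% and 20.3% of all eligible genes. The list was chosen with earlier results of these data known and holds Mmp9, also an osteoclast marker here, so nothing is read from these shares. The membrane-bound zinc proteases of the ADAM family were lower in mOCd than in BMM, by 5.92-fold for Adam8, 2.90-fold for Adam10 and 2.36-fold for Adam17, while Ada, the adenosine deaminase, was 2.59-fold higher.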

How the data were processed

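Total RNA from 4 stages of osteoclast formation was hybridised to Affymetrix arrays, 1 for each stage. The authors deposited 1 linear signal intensity per probe set and array, and the submitters' processing notes name MAS5 without a version. With 2% of the values cut off at both tails, the mean of the deposited intensities came to 100.0 for all 4 arrays. They were thus scaled to a common mean, and a stage's overall mRNA content cannot be read from them. Values near 0 are imprecise on this scale. Pooling of animals is not described in the sources used here.

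Of 45101 probe sets, 64 were controls. Another 34945 carried exactly 1 symbol in the platform annotation, 932 carried several and were not used, and 9160 are unnamed here. All 9 genes matched RefSeq (GRCm38.p6) by Entrez identifier, under the same symbols. A gene's main probe set was its brightest by mean log2 intensity over the 4 arrays, after values under the 50th percentile of an array were raised to it. Ratios and calls followed the rule in the report, with Python 3.11.15, NumPy 2.4.6 and pandas 2.3.3, and the calling was tested on simulated arrays with known folds. The genes changed there were bright, their folds were above 2-fold, and the noise was under the probe-set disagreement. The calling of dim genes or of ratios near 2-fold was thus not tested. Genes outside the 9 were named when they met that rule within a list (other zinc and copper genes), were the 6 nearest in pattern to Mt3 or the 3 nearest to Mt1, or were zinc enzymes or markers. Members and lists were chosen with earlier results of these data known. The 8 alternatives were quantile, median and spike-in scaling (12 spike-in probe sets), a floor at the 30th or 65th percentile, no brightness requirement, the mean over probe sets, and leaving out probe sets with a suffix such as _s_at.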

Additional observations from a re-analysis of the deposited data

How the results depend on the processing

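Of 64 counts of the 9 zinc genes under the alternatives, 59 stayed within 1.5 times the reported count, as did 49 of 64 for the other zinc and copper genes and 57 of 64 for all genes. A level count can hide a change of genes. With the mean over probe sets 3 were still higher in pOC against BMM, but Mt1 took the place of Mtf1. Among 54 ratios of the 9 genes, 9 calls were lost with the mean over probe sets and 4 without suffixed ones. Median and spike-in scaling lost 2 each. Among the 9 genes, spike-in scaling added 2 lower in mOCp against pOC (Mtf1 and Slc30a5). With the mean over probe sets 0 were lower in pOC against BMM, 0 lower in mOCd against pOC and 0 higher in mOCd against mOCp, where the log2 ratio of Slc30a1 was 0.85. Without suffixed probe sets 0 were lower in mOCd against pOC. The log2 ratio of Mtf1 in mOCd against pOC reversed to 0.06 with the mean over probe sets and to 0.23 without suffixed ones, since other probe sets then entered. The ratio of Mt1 in mOCp against pOC, 0.87 as reported and under 2-fold, was −1.04 without suffixed sets, a bound set by the floor. The bound for Mt3 in mOCd against BMM, 8.49 on the log2 scale, ran from 6.96 with the higher floor to 8.95 with the lower one.

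For the other zinc and copper genes, Atox1 at 2.01-fold in mOCp against pOC gave way to 0 higher under quantile, median and spike-in scaling, with the mean over probe sets and without suffixed sets, and no brightness requirement gave 2. In mOCd against pOC, 1 was higher under median scaling and 1 under spike-in scaling, while 1 was lower under quantile normalization and 1 with the mean over probe sets, and 0 were lower without suffixed sets. In mOCp against pOC, 3 were lower under spike-in scaling (Slc39a6, Sco2 and Commd1). In pOC against BMM, 2 were lower under median scaling and 3 higher under spike-in scaling, and in mOCd against mOCp 0 were higher under median scaling. Over all genes, spike-in scaling gave 284 higher and 1655 lower in mOCp against pOC and 443 and 1596 in mOCd against pOC, the mean over probe sets gave 520 lower in mOCp against pOC, and no brightness requirement gave 319 higher and 331 lower in mOCd against mOCp. Beyond what is stated here, the cause was not tested. No paired analysis was possible because each stage has 1 array. Signals near the floor limit Slc39a8, the second Mt1 probe set and the BMM value of Mt3.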

Other observations

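Several zinc genes stayed too dim for the counts in the report. Slc39a4, or ZIP4, the importer that takes up dietary zinc in the gut, read 4.3 in BMM, 18.1 in pOC, 32.0 in mOCd and 62.8 in mOCp, under the 75th percentile on every array and under the floor in BMM. Slc30a3, a vesicular zinc transporter best known from neurons, read 42.8 in BMM, 26.5 in pOC, 8.4 in mOCd and 22.7 in mOCp. Mt4, the metallothionein of stratified epithelia that lies next to Mt3, read 0.5 in BMM, 1.9 in pOC, 15.0 in mOCd and 19.1 in mOCp, and only the mOCp value exceeded the floor. Slc30a2, Slc30a8, Slc39a2, Slc39a5 and Slc39a12 were under the floor on all 4 arrays.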
